A study of Rattus norvegicus with 9 samples.

Results

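The 10 genes described here encode transcription factors of the AP-1 and Egr families. They are *Fos*, *Fosb*, *Fosl1* and *Fosl2* of the Fos family, *Jun*, *Junb* and *Jund* of the Jun family, *Atf3*, a partner of Jun proteins, and the zinc finger genes *Egr1* and *Egr3*. They were taken by gene symbol, 10 of the 32883 genes in the deposited tables, and all 10 had enough counts to be tested. RNA was measured in cultured fibroblasts (Fb) from wild-type rats, in 9 libraries: 3 of Fb-Epn, from the epineurium (the outer sheath of the sciatic nerve), 3 of Fb-Par, from the nerve parenchyma within that sheath, and 3 of Fb-Skn, from abdominal skin. The rats were male Lewis rats, 10 weeks of age. The nerves came from 2 rats and the skin from 1 other rat, so tissue and animal cannot be told apart between nerve and skin. With fewer rats than libraries per type, p-values measure only the spread between these libraries, which may be technical. All cells were grown in medium with serum and passaged once before RNA was taken, with no stimulus, no time series and no freshly isolated cells among the samples.

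AP-1 is a dimer of basic leucine zipper proteins. Fos proteins bind DNA only with a partner, usually a Jun protein, whereas Jun proteins can also pair with each other or with ATF proteins. *Fos*, *Jun*, *Fosb*, *Junb*, *Atf3*, *Egr1* and *Egr3* are immediate early genes, switched on within minutes by serum, growth factors or stress through MAP kinases and factors already bound at their promoters, such as SRF and its Elk partners at CArG boxes. *Fosl1* and *Fosl2* usually follow later and last longer, and *Jund* is expressed more steadily. In injured peripheral nerve, *Jun* and *Atf3* are best known from neurons and Schwann cells, and AP-1 in fibroblasts is known for driving matrix-degrading enzymes and cytokines.

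Promoter sequences were available for 6 of the 10 genes (*Fosb*, *Fosl1*, *Fosl2*, *Junb*, *Jund* and *Egr1*), as the 250 bases before the transcription start in RefSeq on the build GRCr8. The first 3 sequences printed are those of the genes with transcripts higher in Fb-Epn than in both other types (*Egr1*, *Junb* and *Fosl1*), and the fourth is that of *Jund*, the Jun gene highest in Fb-Skn. They run 5′ to 3′ toward the gene, and capitals mark the motifs found: CArG boxes in *Egr1* (chr18:26736828-26737077, plus strand), none in *Junb* (chr19:40080876-40081125, plus strand), GGGCGG in *Fosl1* (chr1:212183635-212183884, plus strand), and TGACGTCA and GGGCGG in *Jund* (chr16:18769772-18770021, minus strand).

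Egr1: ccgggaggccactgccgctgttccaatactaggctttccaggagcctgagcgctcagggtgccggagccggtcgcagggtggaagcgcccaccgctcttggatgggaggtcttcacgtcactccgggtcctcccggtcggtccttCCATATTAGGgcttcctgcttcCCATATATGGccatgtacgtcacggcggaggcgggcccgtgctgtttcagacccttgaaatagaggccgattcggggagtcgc

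Junb: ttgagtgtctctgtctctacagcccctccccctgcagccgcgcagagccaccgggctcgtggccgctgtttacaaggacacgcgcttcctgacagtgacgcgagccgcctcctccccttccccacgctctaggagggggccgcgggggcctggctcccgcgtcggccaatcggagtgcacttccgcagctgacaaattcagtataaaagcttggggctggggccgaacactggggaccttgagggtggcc

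Fosl1: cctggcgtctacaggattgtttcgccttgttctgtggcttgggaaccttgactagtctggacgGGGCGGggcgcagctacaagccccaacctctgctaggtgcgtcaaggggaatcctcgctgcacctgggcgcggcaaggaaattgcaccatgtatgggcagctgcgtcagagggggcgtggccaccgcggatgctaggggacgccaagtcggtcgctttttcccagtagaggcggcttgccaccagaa

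Jund: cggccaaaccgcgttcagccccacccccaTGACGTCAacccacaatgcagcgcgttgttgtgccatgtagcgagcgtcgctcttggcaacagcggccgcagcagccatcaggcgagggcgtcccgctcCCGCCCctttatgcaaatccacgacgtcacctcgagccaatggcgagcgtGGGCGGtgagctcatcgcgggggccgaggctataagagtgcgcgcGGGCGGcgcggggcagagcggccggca

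In all, 4 motifs were searched on both strands: the CArG box that SRF binds, the CRE motif TGACGTCA, the AP-1 motif TGACTCA and the GC box GGGCGG. No match in these sequences overlapped another. The *Egr1* window held 2 CArG boxes, from base -105 to -96 and from base -83 to -74 before the start, and a CArG box was present in 1.50% of 33469 promoters of the same length. In *Jund*, the CRE motif lay from base -221 to -214, a motif held by 1.59% of promoters, with 3 GC boxes nearer the start. A single GC box was found in *Fosl1* and in *Fosl2*, against 30.5% of all promoters with at least 1. TGACTCA, present in 4.05% of promoters, was not found in any of the 6 windows, and none of the 4 motifs was found in *Junb* or *Fosb*. G and C made up 63.2% of the *Egr1* window, 66.0% of *Junb*, 68.4% of *Jund*, 62.0% of *Fosl1*, 70.4% of *Fosl2* and 43.6% of *Fosb*, against a median of 51.2% over all promoters.

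Total counts per library ranged from 10084584 to 12310506, and libraries of a type differed by a common coefficient of variation of 8.25% beyond counting error over the 13273 genes tested. Levels are given as TPM (transcript counts divided by gene length and scaled to a fixed total). Counts were compared by the quasi-likelihood test of edgeR over all 9 libraries, and a gene was called where the adjusted p was under 0.01. Relative to these fitted differences, TPM ratios against Fb-Skn were shifted upward, by a median over genes of 0.14 on the log2 scale for Fb-Epn and 0.15 for Fb-Par, and the shift between Fb-Epn and Fb-Par was -0.01. The fibroblast markers (7 of 8 found) summed to 38780 to 38991 TPM in Fb-Epn, 31093 to 32089 TPM in Fb-Par and 38908 to 40019 TPM in Fb-Skn, with none at 0. The single fibroblast markers had no common order: 3 were called higher and 4 lower in Fb-Epn than Fb-Skn, and 4 higher and 3 lower in each of the other comparisons. Macrophage and leukocyte markers (7 of 8 found, none at 0 in any type) summed to 311 to 351 TPM, 81.0 to 82.3 TPM and 26.1 to 27.0 TPM in the same order, and Schwann cell markers (8 of 8) to 193 to 203 TPM, 268 to 275 TPM and 10.5 to 13.2 TPM, where *Sox10*, *Erbb3* and *Cdh19* had 0 counts in every Fb-Skn library. In such bulk samples, fewer cells of a type and less RNA per cell cannot be told apart.

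**Figure D1:**
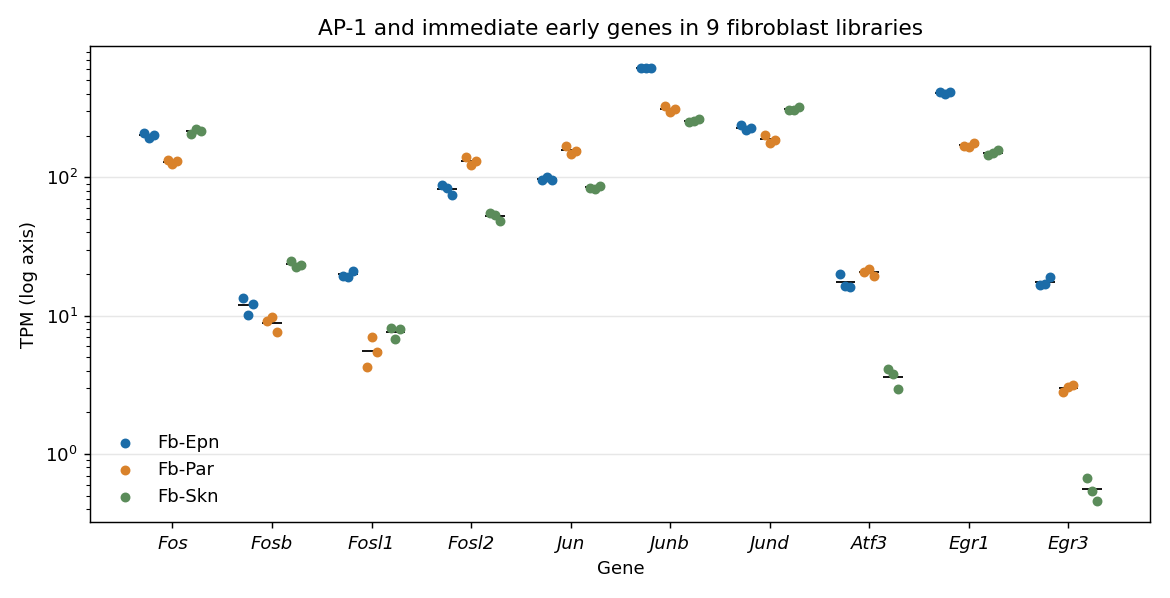
TPM (log axis) of the 10 genes in each library. Points are single libraries (3 per type) and black bars the means. *Junb* in Fb-Epn, at 614 to 619 TPM, was the highest level, and *Egr3* in Fb-Skn, at 0.461 to 0.677 TPM, the lowest.

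In the Fos family, *Fos* and *Fosb* were highest in Fb-Skn and lowest in Fb-Par, *Fosl2* showed the opposite order, and *Fosl1* stood apart in Fb-Epn. *Fos* (ENSRNOG00000008015, rn6 chr6:109300433-109303299, plus strand), the best known immediate early subunit, was present at 207, 192 and 202 TPM in the 3 Fb-Epn libraries, at 133, 126 and 131 TPM in Fb-Par and at 204, 222 and 217 TPM in Fb-Skn. Every Fb-Par library was below all others, whereas Fb-Epn and Fb-Skn overlapped in TPM. By edgeR, *Fos* was 1.83-fold lower in Fb-Par than Fb-Skn (log2 fold change -0.87, SE 0.04, adjusted p = 2.94e-10). Fb-Epn exceeded Fb-Par 1.55-fold (log2 fold change 0.64, SE 0.04, adjusted p = 1.34e-08). The difference between Fb-Epn and Fb-Skn was small (log2 fold change -0.24, SE 0.04, adjusted p = 0.000241). It was not called by limma on log2(TPM + 1) (log2 difference -0.10, adjusted p = 0.0847), so its call holds on the count scale only.

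*Fosb* (ENSRNOG00000046667, rn6 chr1:80214494-80221710, minus strand), a close relative of *Fos*, was present at 13.4, 10.2 and 12.0 TPM in Fb-Epn, 9.17, 9.81 and 7.66 TPM in Fb-Par and 24.8, 22.6 and 23.1 TPM in Fb-Skn. All 3 Fb-Skn libraries lay clear of the nerve types, while the lowest Fb-Epn library was close to the highest Fb-Par library. edgeR gave 2.19-fold less in Fb-Epn than in Fb-Skn (log2 fold change -1.13, SE 0.11, adjusted p = 4.86e-07). Fb-Par was 2.94-fold below Fb-Skn (log2 fold change -1.56, SE 0.11, adjusted p = 1.82e-08). Between the nerve types *Fosb* was called higher in Fb-Epn (log2 fold change 0.43, SE 0.12, adjusted p = 0.00686). That call was lost when Fb-Epn replicate 1 (adjusted p = 0.0380), Fb-Epn replicate 3 (0.0215), Fb-Par replicate 1 (0.0170), Fb-Par replicate 3 (0.0389) or Fb-Skn replicate 3 (0.0101) was left out, in edgeR with only the 2 types compared (0.0130), and in limma on log2(TPM + 1) (0.0221).

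*Fosl1* (ENSRNOG00000020552, rn6 chr1:220826560-220835066, plus strand) encodes Fra-1, a late subunit known from migrating and wounded cells. It was present at 19.4, 19.0 and 21.2 TPM in Fb-Epn, 4.28, 6.97 and 5.42 TPM in Fb-Par and 8.17, 6.83 and 8.02 TPM in Fb-Skn. Fb-Epn was above every other library, and Fb-Par and Fb-Skn overlapped in TPM. The level in Fb-Epn was 3.61-fold that in Fb-Par (log2 fold change 1.85, SE 0.17, adjusted p = 4.07e-07, edgeR). It was 2.34-fold that in Fb-Skn (log2 fold change 1.23, SE 0.16, adjusted p = 1.83e-05). *Fosl1* was called lower in Fb-Par than Fb-Skn (log2 fold change -0.62, SE 0.18, adjusted p = 0.00929), on 39 to 55 against 54 to 74 counts. This call held in only 3 of the 19 other settings (all genes with at least 1 count, upper-quartile factors, and without Fb-Par replicate 2), and its adjusted p without Fb-Par replicate 1 was 0.0488.

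*Fosl2* (ENSRNOG00000052357, rn6 chr6:25598936-25616995, minus strand) encodes Fra-2, a Fos protein known for driving fibrosis when overexpressed. It was present at 87.5, 83.6 and 74.3 TPM in Fb-Epn, 140.0, 122 and 132 TPM in Fb-Par and 55.5, 53.1 and 48.5 TPM in Fb-Skn. The 3 types did not overlap. The level in Fb-Par was 2.26-fold that in Fb-Skn (log2 fold change 1.17, SE 0.09, adjusted p = 3.58e-08, edgeR). Fb-Epn lay between them, below Fb-Par (log2 fold change -0.67, SE 0.08, adjusted p = 1.05e-05) and above Fb-Skn (log2 fold change 0.50, SE 0.09, adjusted p = 0.000299). Its TPM rests on a gene model with a length of 744 bases over a span of 18060 bases, the shortest length among the 10 genes, so its level relative to other genes depends on that model.

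In the Jun family, each gene had its highest level in a different type: *Junb* in Fb-Epn, *Jun* in Fb-Par and *Jund* in Fb-Skn. *Jun* (ENSRNOG00000026293, rn6 chr5:114011189-114014277, minus strand), the subunit after which the family is named, was present at 95.1, 100.2 and 95.9 TPM in Fb-Epn, 169, 148 and 153 TPM in Fb-Par and 84.2, 82.7 and 86.8 TPM in Fb-Skn. Every Fb-Par library was above all others. *Jun* was 1.67-fold higher in Fb-Par than Fb-Skn (log2 fold change 0.74, SE 0.05, adjusted p = 9.96e-09, edgeR). Fb-Epn was 1.61-fold below Fb-Par (log2 fold change -0.68, SE 0.05, adjusted p = 2.72e-08). Between Fb-Epn and Fb-Skn, *Jun* did not pass the threshold (log2 fold change 0.06, SE 0.05, adjusted p = 0.348). The libraries of those types did not overlap in TPM, where limma on log2(TPM + 1) gave a log2 difference of 0.20 and called it (adjusted p = 0.00936).

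*Junb* (ENSRNOG00000042838, rn6 chr19:26092974-26094756, minus strand), a Jun protein that often opposes Jun, was the most abundant of the 10 genes in Fb-Epn and Fb-Par per length. Its level was 614, 616 and 619 TPM in Fb-Epn, 328, 296 and 312 TPM in Fb-Par and 250.0, 254 and 264 TPM in Fb-Skn. In Fb-Epn it exceeded the level of 98.3% of tested genes. It was 2.19-fold higher in Fb-Epn than Fb-Skn (log2 fold change 1.13, SE 0.04, adjusted p = 3.21e-12, edgeR). Fb-Epn exceeded Fb-Par 1.99-fold (log2 fold change 0.99, SE 0.04, adjusted p = 1.44e-11). Fb-Par was only slightly above Fb-Skn (log2 fold change 0.14, SE 0.04, adjusted p = 0.00733). That small difference was no longer called with upper-quartile factors (adjusted p = 0.0159) or without Fb-Epn replicate 1 (0.0108), Fb-Epn replicate 2 (0.0109), Fb-Par replicate 1 (0.0373), Fb-Par replicate 3 (0.0163), Fb-Skn replicate 1 (0.0178) or Fb-Skn replicate 2 (0.0273).

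*Jund* (ENSRNOG00000019568, rn6 chr16:20485029-20486707, minus strand), the steadily expressed Jun gene, was present at 237, 219 and 227 TPM in Fb-Epn, 202, 176 and 185 TPM in Fb-Par and 307, 306 and 320.2 TPM in Fb-Skn. The 3 types did not overlap, and Fb-Skn was highest. edgeR gave 1.84-fold less in Fb-Par than in Fb-Skn (log2 fold change -0.88, SE 0.05, adjusted p = 1.02e-09). Fb-Epn was 1.51-fold below Fb-Skn (log2 fold change -0.59, SE 0.05, adjusted p = 8.65e-08). The nerve types differed less, with Fb-Epn above Fb-Par (log2 fold change 0.29, SE 0.05, adjusted p = 0.000199).

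Summed over the family, Jun transcripts stood at 941 ± 5.10 TPM in Fb-Epn (SD, n = 3, here and for all such values), 657 ± 40.2 TPM in Fb-Par and 652 ± 17.2 TPM in Fb-Skn. Fos family sums were closer together in TPM, at 314 ± 11.9 TPM, 276 ± 10.8 TPM and 298 ± 5.80 TPM. The Fos sums give much weight to *Fosl2*, whose gene model is short, so their order and closeness apply to TPM only. On this scale, the makeup of the family sums also differed between types. *Junb* made up 65.5% ± 0.527 of Jun family TPM in Fb-Epn, against 47.5% ± 0.578 for Fb-Par and 39.3% ± 0.253 for Fb-Skn. *Jund* held 24.2% ± 0.817, 28.6% ± 0.282 and 47.7% ± 0.112 in the same order, and *Jun* 10.3% ± 0.349, 23.9% ± 0.308 and 13.0% ± 0.141. The ratio of *Junb* to *Jund* TPM was thus above 1 in both nerve types, at 2.71 ± 0.112 in Fb-Epn and 1.66 ± 0.0362 in Fb-Par, and below 1 in Fb-Skn, at 0.823 ± 0.00722. No test was run on these shares, and their ranges over the 3 libraries did not overlap between types.

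Among Fos genes, *Fos* made up 63.8% ± 1.23 of family TPM in Fb-Epn, against 47.1% ± 0.634 for Fb-Par and 71.9% ± 1.85 for Fb-Skn. *Fosl2* took 26.1% ± 1.81, 47.6% ± 1.37 and 17.6% ± 1.30, so that in Fb-Par its TPM equalled that of *Fos* (ratio 1.01 ± 0.0412), against ratios of 0.409 ± 0.0358 in Fb-Epn and 0.245 ± 0.0243 in Fb-Skn. *Fosl1* reached its largest share in Fb-Epn (6.33% ± 0.469, against 2.03% ± 0.574 in Fb-Par and 2.58% ± 0.294 in Fb-Skn), and *Fosb* in Fb-Skn (7.90% ± 0.516, against 3.77% ± 0.386 in Fb-Epn and 3.23% ± 0.468 in Fb-Par). Because TPM divides by the short *Fosl2* model, its share of counts was lower, at 13.3% ± 1.10 for Fb-Epn, 28.2% ± 1.23 for Fb-Par and 8.12% ± 0.615 for Fb-Skn, with the same order of types. The *Fos* share of counts was still lowest for Fb-Par (mean 59.5%). Its ranges for Fb-Epn (69.1 to 70.3%) and Fb-Skn (68.8 to 72.2%) overlapped, so these types were separated by *Fos* share on TPM only. *Fosb* kept its largest share of counts with Fb-Skn (mean 18.3%), while Fb-Epn (9.69%) and Fb-Par (9.59%) hardly differed.

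**Figure D2:**
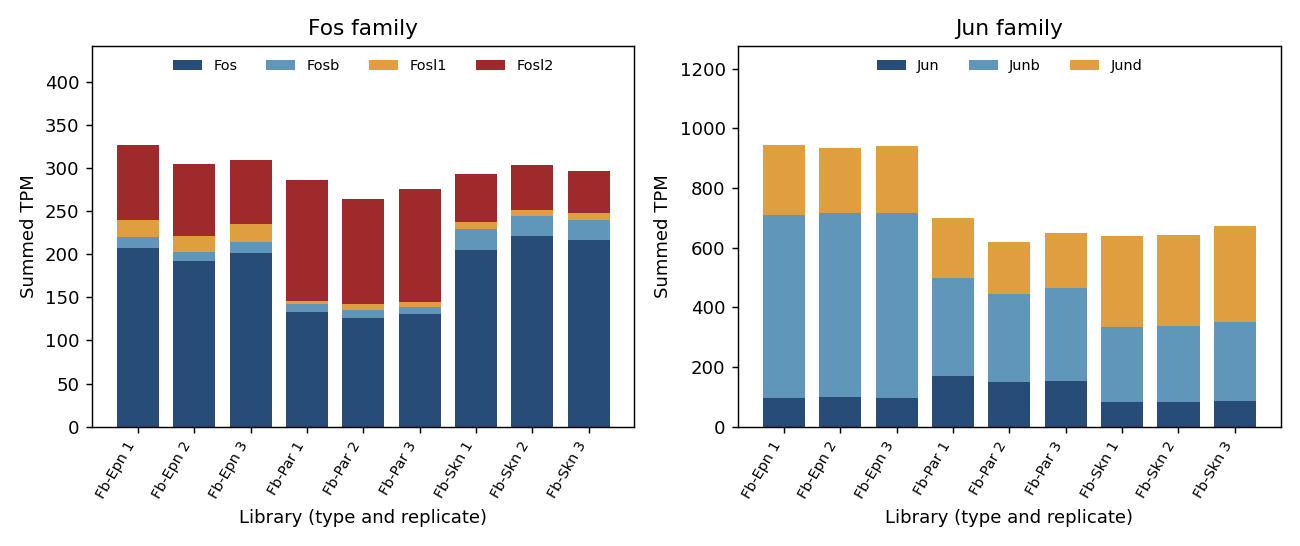
Summed TPM of the Fos family (left) and the Jun family (right) in each library, stacked by gene; bars start at 0. *Junb* fills 64.9 to 65.9% of each Fb-Epn bar of the Jun family, and *Fosl2* 46.2 to 48.9% of each Fb-Par bar of the Fos family.

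*Atf3* (ENSRNOG00000003745, rn6 chr13:109817728-109849632, minus strand), a stress-induced factor that pairs with Jun proteins, separated both nerve types from skin. It was present at 19.9, 16.4 and 16.2 TPM in Fb-Epn, 20.8, 21.6 and 19.2 TPM in Fb-Par and 4.10, 3.76 and 2.94 TPM in Fb-Skn. Every nerve library was above every skin library, and Fb-Epn and Fb-Par overlapped. edgeR gave a 4.38-fold higher level in Fb-Epn than Fb-Skn (log2 fold change 2.13, SE 0.14, adjusted p = 6.18e-09). Fb-Par exceeded Fb-Skn 5.11-fold (log2 fold change 2.35, SE 0.14, adjusted p = 1.62e-09). Between Fb-Epn and Fb-Par the difference did not pass the threshold (log2 fold change -0.22, SE 0.11, adjusted p = 0.122). Schwann cell markers were called higher in Fb-Par than Fb-Skn in 8 of 8 cases, as were *Atf3*, *Jun*, *Fosl2*, *Egr3* and *Junb*. Between Fb-Par and Fb-Epn, 7 of the 8 markers were called higher in Fb-Par, as were *Jun* and *Fosl2* but not *Atf3*. *Egr3* and *Junb* were called lower in Fb-Par than Fb-Epn. Pericyte and smooth muscle markers (7 of 7 found) were called 6 higher and 1 lower in Fb-Par than Fb-Epn. Against Fb-Skn, 5 were called higher and 1 lower in Fb-Par, although their summed TPM was highest in Fb-Skn. Most of that sum was *Acta2* (5051 TPM in Fb-Par, 10307 TPM in Fb-Skn), the only one of these markers with a higher mean in Fb-Skn than in Fb-Par. The part of Schwann cells, pericytes or smooth muscle cells in the levels of *Atf3*, *Jun*, *Fosl2*, *Egr3* and *Junb* was not tested.

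Both Egr genes were highest in Fb-Epn. *Egr1* (ENSRNOG00000019422, rn6 chr18:27657628-27661429, plus strand), whose promoter held the 2 CArG boxes, was present at 412, 398 and 409.6 TPM in Fb-Epn, 167, 166 and 175 TPM in Fb-Par and 144, 149 and 158 TPM in Fb-Skn. All Fb-Epn libraries were far above the rest, and Fb-Par and Fb-Skn lay side by side. *Egr1* was 2.46-fold higher in Fb-Epn than Fb-Skn (log2 fold change 1.30, SE 0.04, adjusted p = 3.60e-13, edgeR). The difference from Fb-Par was 2.42-fold (log2 fold change 1.27, SE 0.04, adjusted p = 5.31e-13). Fb-Par and Fb-Skn did not differ beyond their spread in the count fit (log2 fold change 0.02, SE 0.04, adjusted p = 0.589). They did so on the TPM scale (log2 difference 0.17, adjusted p = 0.00482, limma on log2(TPM + 1)), a difference close to the shift of 0.15 between these scales.

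*Egr3* (ENSRNOG00000017828, rn6 chr15:51756736-51760722, plus strand), a related factor studied mainly in neurons, muscle spindles and lymphocytes, showed the widest span of the 10 genes. It was present at 16.7, 16.9 and 19.1 TPM in Fb-Epn, 2.83, 3.03 and 3.18 TPM in Fb-Par and 0.677, 0.543 and 0.461 TPM in Fb-Skn. These levels rest on 228 to 263, 39 to 43 and 6 to 10 counts per library, and the types did not overlap. edgeR gave a 27.8-fold difference between Fb-Epn and Fb-Skn (log2 fold change 4.80, SE 0.18, adjusted p = 1.50e-11). Fb-Epn exceeded Fb-Par 5.87-fold (log2 fold change 2.55, SE 0.14, adjusted p = 1.30e-09). Fb-Par exceeded Fb-Skn 4.74-fold (log2 fold change 2.25, SE 0.21, adjusted p = 4.62e-07). On the scale of log2(TPM + 1), which shrinks low levels, limma gave log2 differences of 3.57, 2.21 and 1.36 for these comparisons, each called.

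Summed macrophage and leukocyte markers followed the same order as *Egr3*, and all 7 were called higher in Fb-Epn than in both other types and in Fb-Par than in Fb-Skn. Endothelial markers (6 of 7 found, 4 tested) summed to lower levels of 15.1 to 15.9 TPM in Fb-Epn, 10.4 to 11.8 TPM in Fb-Par and 1.00 to 1.60 TPM in Fb-Skn. *Cldn5* had 0 counts in Fb-Par and Fb-Skn, and *Cdh5* in Fb-Skn. Most of the sum in Fb-Par was *Tek*, the only one of these markers with a higher mean there (10.2 TPM) than in Fb-Epn (8.37 TPM). *Tie1* (0.682 against 4.19 TPM) and *Cdh5* (0.0968 against 1.78 TPM) were among those lower in Fb-Par. All 4 endothelial markers tested were called higher in Fb-Epn than Fb-Skn, but 2 of 4 in Fb-Epn than Fb-Par and 2 of 4 in Fb-Par than Fb-Skn. *Egr2*, the related gene that is also a Schwann cell regulator, was present at 45.1 ± 1.53 TPM, 23.2 ± 0.512 TPM and 4.00 ± 0.365 TPM. The part of macrophages in the levels of *Egr3*, *Egr1* and *Junb* was not tested.

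**Figure D3:**
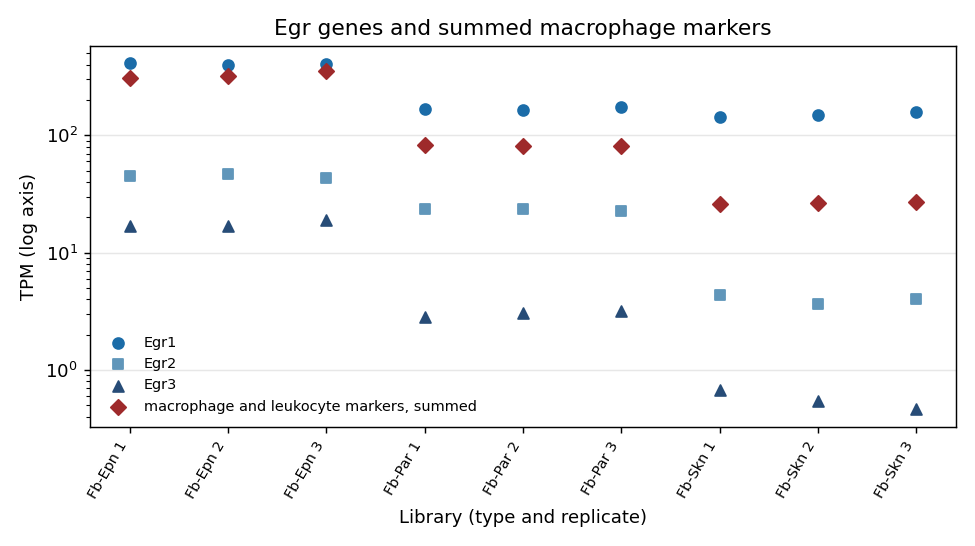
TPM (log axis) of *Egr1*, *Egr2* and *Egr3* in each library, with the summed TPM of the 7 macrophage and leukocyte markers found. All 4 series are highest in the Fb-Epn libraries; between Fb-Par and Fb-Skn, *Egr1* differs little while the markers stand at 81.0 to 82.3 TPM and 26.1 to 27.0 TPM.

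Counted by comparison, 9 of the 10 genes were called between Fb-Epn and Fb-Skn, where 43.9% of all 13273 tested genes were called. Of these, 6 were higher in Fb-Epn (23.0% of all genes) and 3 were higher in Fb-Skn (20.9% of all genes). Between Fb-Epn and Fb-Par, 9 were called (38.8% of all genes), with 7 higher in Fb-Epn (20.2% of all genes) and 2 higher in Fb-Par (18.6% of all genes). Between Fb-Par and Fb-Skn, 9 were called (45.6% of all genes), with 5 higher in Fb-Par (23.2% of all genes) and 4 higher in Fb-Skn (22.4% of all genes). With library size as the only scaling, the share of calls over all genes that were higher in the nerve type rose from 52.3% to 63.7% where Fb-Epn was set against Fb-Skn and from 50.8% to 61.9% where Fb-Par was, and no member changed direction.

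A stricter count also asked for a log2 fold change above 2 or below -2. This fold limit is that of the study, which used it with a p-value of its own, whereas here it stands beside the adjusted p of edgeR on counts. *Atf3* and *Egr3* passed it between Fb-Epn and Fb-Skn (2 of 10, against 8.44% of all genes) and between Fb-Par and Fb-Skn (2 of 10, against 8.54%), and *Egr3* was the 1 gene that passed between Fb-Epn and Fb-Par (against 6.48%). The median absolute log2 fold change of the 10 genes was 1.13 between Fb-Epn and Fb-Skn, 0.68 between Fb-Epn and Fb-Par and 0.87 between Fb-Par and Fb-Skn, beside 0.33, 0.28 and 0.34 over all tested genes. Called in all 3 comparisons were 7 genes, as were 16.5% of all tested genes, and *Atf3*, *Jun* and *Egr1* were called in 2. Each type enters 2 of the 3 comparisons, so the comparisons are not independent.

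**Figure D4:**
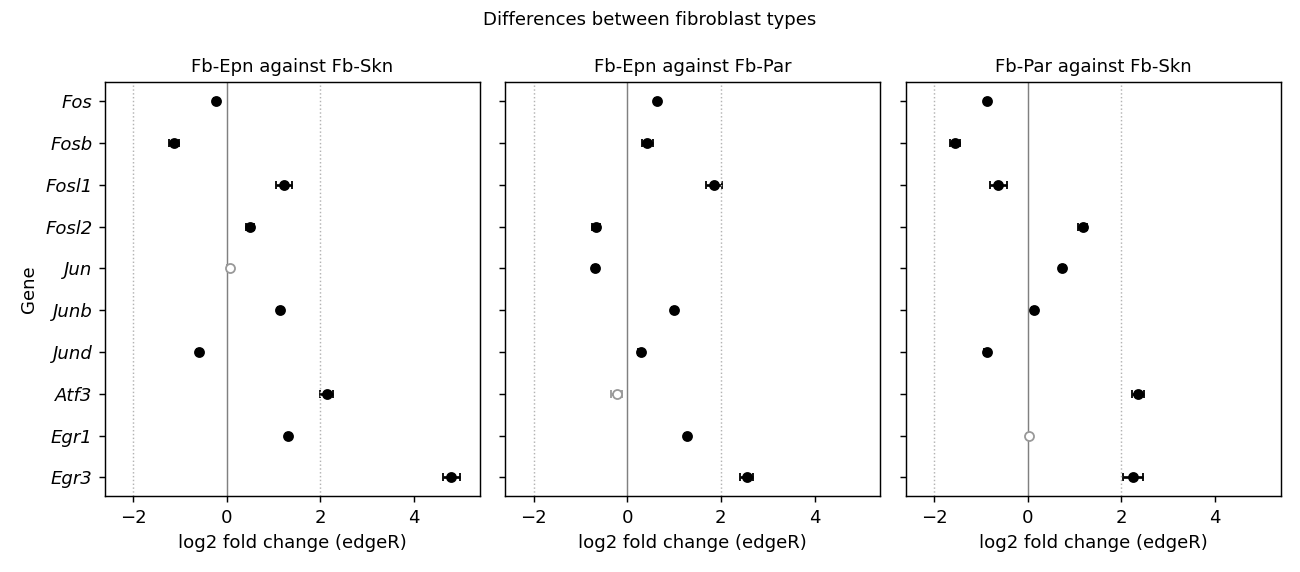
Log2 fold changes from edgeR for the 3 comparisons; points right of 0 are higher in the first type named. Filled points passed an adjusted p of 0.01, open points did not, bars are 1 SE, and dotted lines mark log2 fold changes of -2 and 2. *Egr3* is past the dotted line in each panel, and *Atf3* in both comparisons with Fb-Skn.

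Other basic leucine zipper genes that pair or compete with AP-1 (12 tested) were called in both directions. There were 5 higher and 5 lower in Fb-Epn than Fb-Skn, 4 and 2 against Fb-Par, and 3 higher and 5 lower in Fb-Par than Fb-Skn. Calls thus took in 10, 6 and 8 of the 12, beside 43.9%, 38.8% and 45.6% of all tested genes. *Cebpd*, an inflammation-induced C/EBP factor, had the largest difference, with 465 ± 11.4 TPM in Fb-Epn, 136 ± 10.7 TPM in Fb-Par and 84.5 ± 2.07 TPM in Fb-Skn (Fb-Epn against Fb-Skn, log2 fold change 2.32, SE 0.06, adjusted p = 7.83e-14, edgeR). *Cebpb*, its relative, was lowest in Fb-Par (394 ± 6.74 TPM, 182 ± 21.3 TPM and 276 ± 5.81 TPM). *Jdp2*, a repressor that binds Jun proteins, was higher in Fb-Skn (228 ± 5.57 TPM) than in Fb-Par (150.1 ± 5.04 TPM; log2 fold change of Fb-Par over Fb-Skn -0.75, SE 0.05, adjusted p = 6.86e-09). *Atf7* was higher in both nerve types than in Fb-Skn (log2 fold change 0.68 for Fb-Epn and 0.82 for Fb-Par).

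Of 38 other immediate early genes tested, 19 were called higher and 10 lower in Fb-Epn than Fb-Skn (median log2 fold change 0.24), 20 and 11 against Fb-Par (0.31), and 18 higher and 10 lower in Fb-Par than Fb-Skn (0.17). In that order, 76.3%, 81.6% and 73.7% of the list were called, beside 43.9%, 38.8% and 45.6% of all tested genes. *Nr4a1*, an orphan nuclear receptor gene induced with *Egr1*, had the order of *Egr3*, at 118 ± 5.41 TPM, 53.4 ± 5.46 TPM and 21.6 ± 1.25 TPM. *Arc*, best known from synapses, did so too, at 6.53 ± 0.584 TPM, 1.50 ± 0.151 TPM and 0.496 ± 0.231 TPM. *Ptgs2*, which encodes cyclooxygenase-2, was higher in Fb-Epn than Fb-Par (29.1 ± 1.17 against 5.62 ± 0.0688 TPM; log2 fold change 2.38, SE 0.07, adjusted p = 1.46e-12, edgeR). Not all shared this direction. *Gem*, a small GTP-binding protein gene, was highest in Fb-Par (5.50 ± 1.38 TPM, 26.8 ± 2.64 TPM and 1.87 ± 0.631 TPM). *Gadd45g*, a growth arrest gene, was highest in Fb-Skn and lowest in Fb-Par (407 ± 12.6 TPM, 94.3 ± 5.64 TPM and 885 ± 15.3 TPM).

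Of 22 kinases and promoter factors upstream of these genes, 4 were called higher and 6 lower in Fb-Epn than Fb-Skn, 4 and 3 against Fb-Par, and 1 higher and 7 lower in Fb-Par than Fb-Skn. The shares called, 45.5%, 31.8% and 36.4%, were near or below those of all tested genes (43.9%, 38.8% and 45.6%). *Map2k1*, which encodes the ERK kinase MEK1, was called higher in Fb-Epn than Fb-Par (196 ± 1.93 against 134 ± 6.85 TPM; log2 fold change 0.56, SE 0.05, adjusted p = 1.41e-07, edgeR), and *Map2k2*, which encodes MEK2, lower (129 ± 4.74 against 171 ± 5.99 TPM; -0.39, SE 0.04, adjusted p = 3.40e-06). *Elk3*, an SRF partner, was lower in Fb-Epn (log2 fold change -0.62) and in Fb-Par (-0.73) than in Fb-Skn. *Mapkapk2*, a kinase downstream of p38, was lower in Fb-Par than Fb-Skn (-0.31) and in Fb-Epn (0.30 for Fb-Epn over Fb-Par). *Rps6ka1*, an ERK-activated kinase gene, was the only one of the 22 with a called absolute log2 fold change above 1 (1.11 for Fb-Epn over Fb-Skn, SE 0.23, adjusted p = 0.000763).

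Feedback inhibitors of MAP kinase signaling include genes that are themselves induced by ERK. Of 17 tested, 8 were called higher and 2 lower in Fb-Epn than Fb-Skn (median log2 fold change 0.44), 7 and 3 against Fb-Par (0.28), and 6 higher and 4 lower in Fb-Par than Fb-Skn (0.18). In each comparison 58.8% of the list was called, beside 43.9%, 38.8% and 45.6% of all tested genes. *Errfi1*, an EGF receptor inhibitor gene, was present at 72.1 ± 2.52 TPM in Fb-Epn, 33.1 ± 0.558 TPM in Fb-Par and 10.3 ± 0.843 TPM in Fb-Skn, the order of *Egr3* and *Junb*. The ERK phosphatase gene *Dusp6* was 44.2 TPM, 35.2 TPM and 11.0 TPM on average (Fb-Par over Fb-Skn, log2 fold change 1.53, SE 0.07, adjusted p = 2.12e-10). *Dusp4* (16.4 ± 0.652 against 3.77 ± 1.29 TPM) and *Dusp5* (11.7 ± 1.48 against 3.20 ± 0.548 TPM) were higher in Fb-Epn than Fb-Par (log2 fold changes 2.13 and 1.87). *Spry4* was higher in Fb-Par than Fb-Epn (19.9 ± 1.75 against 8.69 ± 1.04 TPM), and *Dusp2* was highest in Fb-Skn (4.01 ± 0.286 TPM) at low levels throughout.

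Among 22 known AP-1 target genes tested, 11 were called higher and 7 lower in Fb-Epn than Fb-Skn (median log2 fold change 0.50), 17 higher and 1 lower in Fb-Epn than Fb-Par (0.88), and 7 higher and 11 lower in Fb-Par than Fb-Skn (-0.56). The called share was 81.8% each time, beside 43.9%, 38.8% and 45.6% of all tested genes. The median against Fb-Par was 0.81 with *Ereg* at its bound and without *Mmp10*, and the other medians did not move. *Ccl2*, a chemokine that attracts monocytes, was present at 737 ± 38.0 TPM in Fb-Epn, 52.6 ± 4.01 TPM in Fb-Par and 208 ± 3.90 TPM in Fb-Skn (Fb-Epn over Fb-Par, log2 fold change 3.82, SE 0.06, adjusted p = 6.57e-16, edgeR). *Mmp12*, macrophage elastase, stood at 294 ± 12.5 TPM, 23.2 ± 1.51 TPM and 23.3 ± 3.38 TPM. The stromelysin genes *Mmp3* and *Mmp10* had their highest levels in Fb-Skn. *Mmp3* had 143 to 169 counts per Fb-Skn library, 4 to 16 per Fb-Epn library and 1 to 3 per Fb-Par library. *Mmp10* had 19 to 44 counts in Fb-Skn and 0 in Fb-Par. Its mean level in Fb-Skn was at least 11.0-fold that in Fb-Par, with Fb-Par set to a floor of 3 counts per library. *Ereg*, the EGF family ligand epiregulin, had 28 to 31 counts in Fb-Epn and 0 in Fb-Par, a mean level at least 9.49-fold higher against the same floor. *Itga2*, a collagen receptor subunit, had 49 to 102 counts in Fb-Epn, 8 to 15 in Fb-Par and 1 to 4 in Fb-Skn. *Ccl2* and *Mmp12* are also made by macrophages, whose markers were highest in Fb-Epn, and the part of those cells was not tested.

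For *Atf3*, the integrated stress response offers another set of co-induced genes. Of 18 tested, 3 were called higher and 9 lower in Fb-Epn than Fb-Skn (median log2 fold change -0.21), 6 and 5 against Fb-Par (-0.01), and 2 higher and 12 lower in Fb-Par than Fb-Skn (-0.43). Calls thus covered 66.7%, 61.1% and 77.8% of the list, beside 43.9%, 38.8% and 45.6% of all tested genes. *Atf3* itself was higher in both nerve types. *Trib3*, a pseudokinase gene of this response, was lower in Fb-Par than Fb-Skn (90.9 ± 2.96 against 132 ± 4.36 TPM; log2 fold change -0.69, SE 0.05, adjusted p = 1.45e-08, edgeR). *Hspa5*, the endoplasmic reticulum chaperone BiP, was lower in Fb-Epn than Fb-Skn (700.4 ± 10.5 against 1001 ± 17.9 TPM; -0.66, SE 0.03, adjusted p = 1.42e-10), as was *Vldlr* (-0.78). *Ddit4*, an mTOR inhibitor gene, was higher in Fb-Epn (204 ± 4.31 TPM) than in Fb-Skn (79.9 ± 3.96 TPM) and Fb-Par (51.2 ± 1.52 TPM). *Psat1* and *Chac1* were higher in Fb-Epn than Fb-Par (log2 fold changes 0.88 and 0.75), and *Slc7a11* was higher in Fb-Par than Fb-Skn (0.61).

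**Figure D5:**
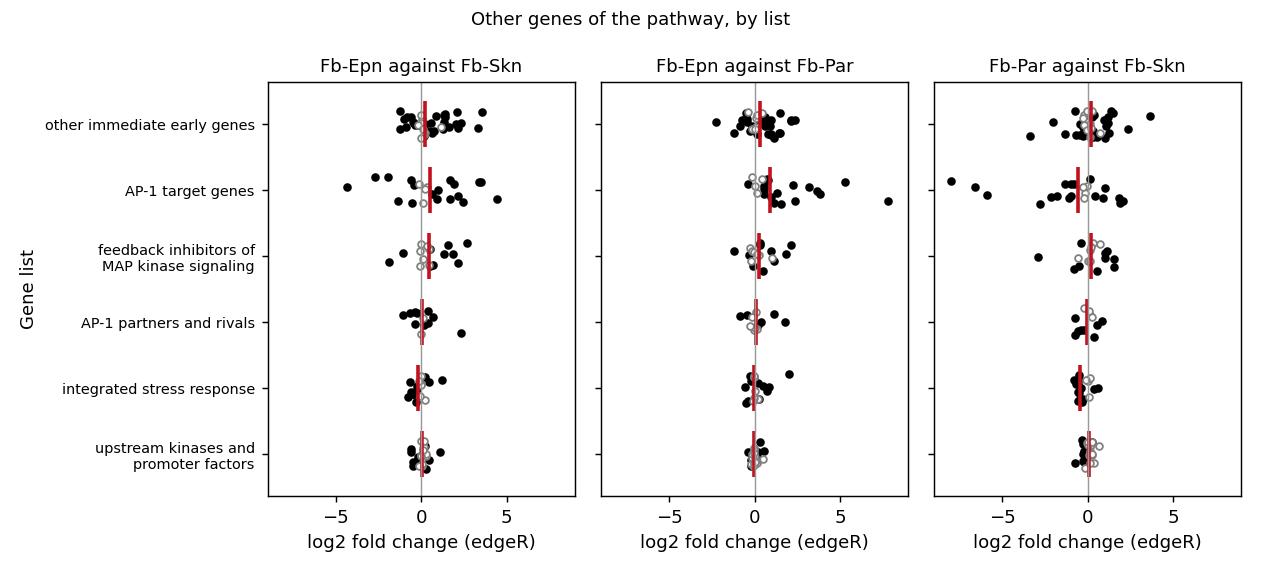
Log2 fold changes from edgeR of every tested gene in the 6 pathway lists, 1 point per gene (filled where the adjusted p was under 0.01) with the list median as a red bar; points right of 0 are higher in the first type named. The 22 AP-1 target genes lean to Fb-Epn against Fb-Par (median 0.88) and to Fb-Skn against Fb-Par (median -0.56), and the medians of the 22 upstream genes are 0.02, -0.01 and 0.05, from left to right. Points of *Ereg* and *Mmp10* in comparisons with Fb-Par, where both had 0 counts, are fitted values and not bounds.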

How the data were processed

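The libraries were poly(A) selected and directional, with paired reads of 150 bp. According to the submitters' processing notes, the authors used FastQC 0.11.7, Trimmomatic 0.38, HISAT2 2.1.0, the genome rn6 and featureCounts 1.6.3; the annotation release and how strand was treated in counting are not given in the sources used here. The authors deposited raw counts per gene, which were tested, and TPM, which gave the levels. TPM divided by count gave 1 length per gene in every library. A table of FPKM was not used. Group and replicate number came from the sample titles.

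The members and the gene lists were chosen with earlier results of these data known. Counts were fitted with edgeR 4.0.16 in R 4.3.3 (TMM, the default expression filter, quasi-likelihood F test, all 9 libraries in 1 fit, the 3 types as contrasts), with Benjamini-Hochberg adjustment over 13273 genes within each comparison and a threshold of 0.01. SE is the log2 fold change divided by the square root of F. TMM factors ranged from 0.955 to 1.03. With 3 libraries per type an exact permutation test of 1 gene cannot go below 0.1 (two-sided), so none was run. No pair of libraries of a type was alike within counting noise (chi-square per degree of freedom 3.18 to 5.47). The nearest listed gene to each member did not overlap it.

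Named genes are the members, and in each list the 3 called genes with the largest absolute log2 fold change per comparison among those with a mean of at least 1 TPM. A gene that this rule picks is not reported here. For the promoters, motifs were counted over RefSeq windows on GRCr8, a build other than that of the counts. The alternatives were RLE, upper-quartile or no scaling factors, DESeq2 1.42.0, limma 3.58.1 on log2(TPM + 1) and log2(TPM + 0.1), other filters, thresholds and samples, a replicate block, and each library left out. The fitting steps were tested on simulated data. Python 3.11.15 with matplotlib 3.10.9, numpy 2.4.6 and pandas 2.3.3 made the tables and plots.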

Additional observations from a re-analysis of the deposited data

How the results depend on the processing

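The number of members called stayed within 1.5 times its value in 61 of 66 alternatives over the 3 comparisons, and no member's log2 fold change changed sign in 567 refits, of which 34 lost and 4 gained a call. The 5 exceptions were stricter rules on fold: with a log2 fold change past 2 as well, 2 members were called between Fb-Epn and Fb-Skn, 1 between Fb-Epn and Fb-Par and 2 between Fb-Par and Fb-Skn, and with a log2 fold change past 1, 3 and 4 in the last 2 of these. Leaving out each library in turn gave 9 members called in each refit between Fb-Epn and Fb-Skn, 8 to 9 between Fb-Epn and Fb-Par and 7 to 9 between Fb-Par and Fb-Skn. All 234 counts over the pathway lists stayed within that range. *Egr3* has no value under the filter of 10 counts per library, since its lowest count is 6. Of 84 shares of family TPM, counted over the alternatives, 19 moved by more than 1 SD, all by the use of counts in place of TPM. On counts, only the shares of *Fos* and *Fosl1* in Fb-Skn stayed within 1 SD, so the sizes of the shares apply to the TPM scale. The separation of Fb-Epn from Fb-Skn by *Fos* share was also limited to TPM.

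Libraries with the same replicate number did not deviate together (r of their deviations from -0.08 to 0.02 over 9 pairs, against -0.04 to 0.09 over 18 pairs with different numbers), so the numbers were not taken as pairs. Only Fb-Epn and Fb-Par libraries could share a rat, since the skin came from another. Their same-number pairs gave r of -0.03, -0.01 and -0.08, too few to settle whether they were paired. With a replicate block, 9 members were called between Fb-Epn and Fb-Skn, 9 between Fb-Epn and Fb-Par and 7 between Fb-Par and Fb-Skn, where *Fosl1* (adjusted p = 0.0163) and *Junb* (0.0102) were not called. The cause was not tested. Depth limits *Egr3* most, with 6 to 10 counts per Fb-Skn library.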

Other observations

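For each member, the genes with the most similar pattern were ranked by Pearson's r of log2(TPM + 1) over the 9 libraries, a description in which libraries of a type share their source and any gene that separates the types alike scores high. The closest to *Egr3* were *Gm2a*, *Lyz2* and *Cd68* (r = 0.998 each), of which *Lyz2*, a lysozyme gene of macrophages, averaged 957 TPM in Fb-Epn, 178 TPM in Fb-Par and 60.6 TPM in Fb-Skn. *Egr1* was closest to the chemokine gene *Cxcl12* (r = 0.9995; 311, 18.1 and 11.1 TPM), *Txnip* (0.999) and AABR07049085.1 (0.998). *Junb* was closest to *Cd200r1*, *Ero1a* and *Myc* (0.998 each), the last at 91.1, 34.6 and 26.8 TPM. *Fosl1* was closest to *Uhrf1* (0.994), *Ell* (0.988) and *Rad54l* (0.985). *Uhrf1*, which maintains DNA methylation in dividing cells, averaged 17.6, 3.02 and 5.10 TPM.

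*Fos* followed *Lrrc15* (0.995), a gene of activated fibroblasts, *En1* (0.995) and *Pdzrn3* (0.993). The homeobox gene *En1* averaged 66.1 TPM in Fb-Epn, 5.60 TPM in Fb-Par and 85.5 TPM in Fb-Skn. *Fosb* followed *Colgalt1* (0.991), *Acy1* (0.987) and *Eef1g* (0.986), and *Jund* followed *Chmp4c* (0.994), *Flt1* (0.991) and *Smyd2* (0.991). *Fosl2* was closest to *Stard8* (0.996), *Snap29* (0.994) and *Fam53c* (0.992), and *Jun* to *Nectin1* (0.995), *Arhgap20* (0.992) and AABR07064873.1 (0.991). *Atf3* was closest to *Tek* (0.997), an endothelial receptor gene at 8.37, 10.2 and 1.20 TPM, to *Cd63* (0.996) and to *Afap1l1* (0.994). Among the members, *Egr1* and *Junb* were the most alike (r = 0.992), and *Fos* and *Jun* the most opposed (r = -0.98).

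A gene annotated as a long noncoding RNA, AC111804.2, lies 881 bases from *Egr3* on the same strand. It had 34, 46 and 33 counts in Fb-Epn, 10, 4 and 7 in Fb-Par and 0, 3 and 0 in Fb-Skn, the order of *Egr3*. It was picked out after its values were seen, and whether its reads come from a transcript separate from that of *Egr3* was not tested.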
